A study of Mus musculus with 8 samples.

Results

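Gene expression was compared between Jak2V617F 32D clones that had lost both glucose transporters GLUT1 and GLUT3 and Jak2WT clones with both transporters intact, to see where the double loss left the Jak2V617F transcriptome against that of unedited Jak2WT cells. A gene was compared where 2 or more of these 4 libraries held it at an FPKM of 1 or above, which 11364 of the 56748 genes listed did. FPKM counts the fragments on a gene relative to its length and to the size of the library. The study sequenced 8 libraries, 2 clones of each combination of Jak2WT or Jak2V617F with GLUT1/3 WT or GLUT1/3 dKO, and 4 of these 8 entered the comparison.

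32D is an immortal mouse myeloid line that needs interleukin-3 (IL-3). Cells of both backgrounds had been transduced with murine Jak2, either Jak2WT or Jak2V617F, the constitutively active kinase of myeloproliferative neoplasms, beside a further transgene that all groups share. Single cells had been expanded before editing, and Slc2a1 and Slc2a3 were then disrupted with CRISPR-Cas9, so that each library is 1 clone and the clones sequenced carried the numbers 1 and 3 in every group. All groups had spent 24 h in a medium that held IL-3 at 2 ng/ml, glutamine at 1 mM and glucose at 5 mM. The groups compared, called the Jak2WT clones (Jak2WT GLUT1/3 WT) and the V617F dKO clones (Jak2V617F GLUT1/3 dKO) here, differ in the Jak2 allele, in the transporters and in their clonal origin, and these cannot be told apart from the 4 libraries. The V617F WT clones (Jak2V617F GLUT1/3 WT) show where each gene stood in the mutant background with the transporters intact.

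GLUT1 and GLUT3 carry glucose across the plasma membrane, and glycolysis turns it into pyruvate and lactate. The hypoxia-inducible factor HIF-1, which is also raised by cytokine signalling, drives the genes of glycolysis and a set of further targets. Jak2 relays the signals of the receptors for erythropoietin and IL-3 to the STAT factors, and its mutant form is known for excess production of red cells and platelets.

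The recovered reads of the 4 libraries ranged from 16846011 to 37448557. As a check for a library deposited in duplicate, the reads of the clones of 1 group were compared, and the chi-square per gene was 8.24 between the Jak2WT clones and 36.3 between the V617F dKO clones, where repeated counts of 1 library would give a value near 1. Of the 12 markers of myeloid progenitors, the cell type on the label, Csf2rb, Spi1, Il3ra, Ptprc and Prtn3 were tested, while 6 markers, Mpo, Ctsg, Cebpa, Csf2ra, Cd34 and Kit, lay under 0.1 FPKM in all 4 libraries. Csf2rb, Ptprc and Spi1 were lower and Il3ra higher, the calls of Spi1 and Il3ra being lost in 11 of 19 alternatives each, and the summed FPKM of the 12 markers was 247 and 219 in the Jak2WT clones against 89.1 and 91.95 in the V617F dKO clones. The summed FPKM of 10 erythroid markers was 276 and 291 in the Jak2WT clones and 4868 and 2712 in the V617F dKO clones. That of 6 markers of mature granulocytes was 214 and 82.1 against 1.55 and 14.4. Of 6 mast cell or basophil markers, Cpa3 alone reached 1 FPKM in any of the 4 libraries, and of 5 macrophage or monocyte markers Adgre1 alone, at 47.6 and 51.1 against 16.3 and 20.3 FPKM. No B or T cell marker other than Cd79b reached 1 FPKM in any of the 4 libraries. The part of these shifts in the results was not tested, and in a bulk library fewer cells of a type and less RNA per cell cannot be told apart.

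Slc2a1 (chr4:118965908-118995180, GRCm39), which encodes GLUT1, had 44.7 and 48.4 FPKM in the Jak2WT clones 1 and 3 and 17.3 and 12.7 FPKM in the V617F dKO clones. Both V617F dKO clones lay below both Jak2WT clones, and the log2 difference was -1.58 (SE 0.15, limma adjusted p = 0.000411). Slc2a3 (chr6:122704768-122778599), which encodes GLUT3, had 97.7 and 91.9 FPKM in the Jak2WT clones and 48.2 and 23.8 FPKM in the V617F dKO clones. Its V617F dKO clones also lay below both Jak2WT clones, but differed from each other, and the difference of -1.45 (SE 0.49) did not pass the test (adjusted p = 0.0571, and 0.0152 to 0.235 over 19 alternatives). In the V617F WT clones, the levels were 64.0 and 52.97 FPKM for Slc2a1 and 198 and 166 FPKM for Slc2a3, so that the transcripts of both deleted genes remained detectable in every clone. Among the other 10 members of the Slc2a family listed, 3 were tested. Slc2a9, which also carries urate, was higher at 2.98 and 3.73 FPKM against 1.33 and 1.24 (log2 difference 0.93, adjusted p = 0.00153). The lysosomal Slc2a6 was lower, a call lost in 7 of the 18 alternatives that tested it, and Slc2a8 lay at the Jak2WT level, with differences of -0.59 and -0.20.

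Jak2 itself had 258 and 243 FPKM in the Jak2WT clones, 139.8 and 139 FPKM in the V617F WT clones and 152 and 165 FPKM in the V617F dKO clones. It was lower in the V617F dKO clones than in the Jak2WT clones (log2 difference -0.65, SE 0.090, adjusted p = 0.00203), and reads of the endogenous gene and of the murine transgene cannot be told apart.

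Of the 11364 genes tested, 1768 were higher (15.6%) and 1991 lower (17.5%) in the V617F dKO clones than in the Jak2WT clones, 33.1% in all (limma on log2(FPKM + 1), Benjamini-Hochberg adjusted p under 0.05). Among them, 362 were higher and 363 lower by at least 1 on the log2 scale, while 52.9% of the genes called differed by less than 1.5-fold. A gene was taken to be at the Jak2WT level where it was not called and the 95% interval of its difference stayed within 1.5-fold either way. This held for 5620 genes (49.5%), and 1985 genes were undecided. The FPKM ranges of the groups did not overlap in any gene called, nor in 70.4% of all genes tested. Differences are on the log2(FPKM + 1) scale and against the Jak2WT clones unless stated, which understates those of low genes. The median difference over all genes was -0.018. Of the protein-coding genes tested, 54.4% lay at the Jak2WT level, and of the 626 long non-coding RNAs 28.3%. Without clone 1 of the Jak2WT group 900 genes were higher and 1044 lower, and without its clone 3, 910 and 935, with the lone clone assumed to vary like the other groups. Clones were left out 1 at a time throughout, and "without either" means without the one or without the other. Permuting the 4 libraries of a gene exactly could give no two-sided p under 0.333. The adjusted p-values therefore rest on the spread shared across the 8 libraries, and they measure the spread between clones of 1 line.

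**Figure D1:**
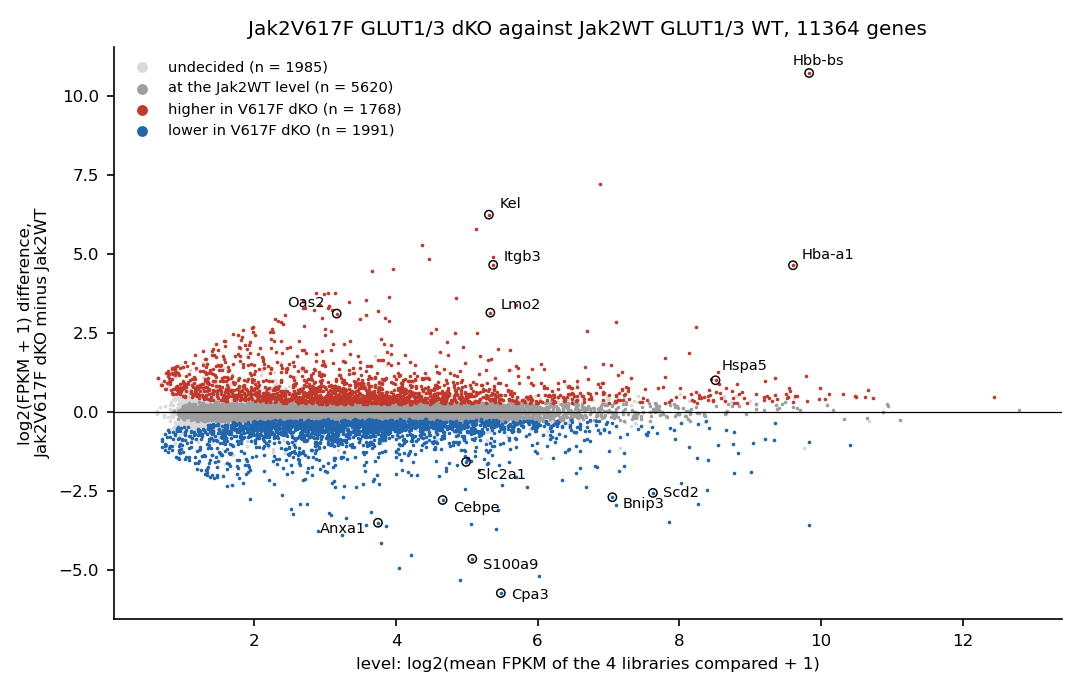
Log2 difference between the V617F dKO clones and the Jak2WT clones (vertical axis, log2(FPKM + 1)) against the level of each of the 11364 genes (horizontal axis, log2 of the mean FPKM of the 4 libraries plus 1). Genes called higher are red, genes called lower blue, genes at the Jak2WT level dark grey and undecided genes light grey, with Hbb-bs at 10.72 and Cpa3 at -5.74 as the extremes.

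The V617F WT clones placed these end points. Against the Jak2WT clones, they differed in 3536 genes (31.1%), 1765 higher and 1771 lower, in the same fit. These comparisons share the Jak2WT libraries, so that the sorting of the genes below is a description. Of the 3536 genes, 1404 (39.7%) were at the Jak2WT level in the V617F dKO clones and are called returned here. No call between the 2 Jak2V617F groups was needed for this. In the V617F WT clones, the median absolute log2 difference of these 1404 genes was 0.46, while the margin of 1.5-fold is 0.58. Beyond the Jak2WT level, with a call in the opposite direction, were 195 (5.51%), of which 102 ended higher and 93 lower than in the Jak2WT clones. Short of it, moved back but still different in the first direction, were 124 (3.51%). A further 1247 (35.3%) kept their difference without a call between the 2 Jak2V617F groups, 238 (6.73%) moved further away and 328 (9.28%) were undecided. The V617F dKO clones also differed from the Jak2WT clones in 1955 genes for which the V617F WT clones were not called, 829 higher and 1126 lower. Sorting needs several calls at once and leaned on single clones. Without clone 1 or 3 of the Jak2WT group, 38 and 34 genes were beyond, 52 and 38 short and 457 and 410 returned, without clone 1 of the V617F WT group 126, 66 and 816, and without clone 3 of the V617F dKO group 69 were short.

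Gene lists were then read against these shares. Lists are described by how many members tested were higher, lower or at the Jak2WT level and by the median of their log2 differences, beside 15.6%, 17.5%, 49.5% and a median of -0.018 over all genes. Where a list had no member called by limma in one direction, none had an unadjusted p under 0.05 in that direction and none was called by voom on the recovered reads, except where stated. A gene under 1 FPKM in both clones of 1 group was tested only because both clones of the other group reached 1, so that its direction was fixed by the filter. This held for 301 genes through the V617F dKO clones and for 235 through the Jak2WT clones, and the members concerned are given with their lists. In the other lists described they were Slc2a6, Nupr1, Il2ra and Stat4, all through the Jak2WT clones.

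**Figure D2:**
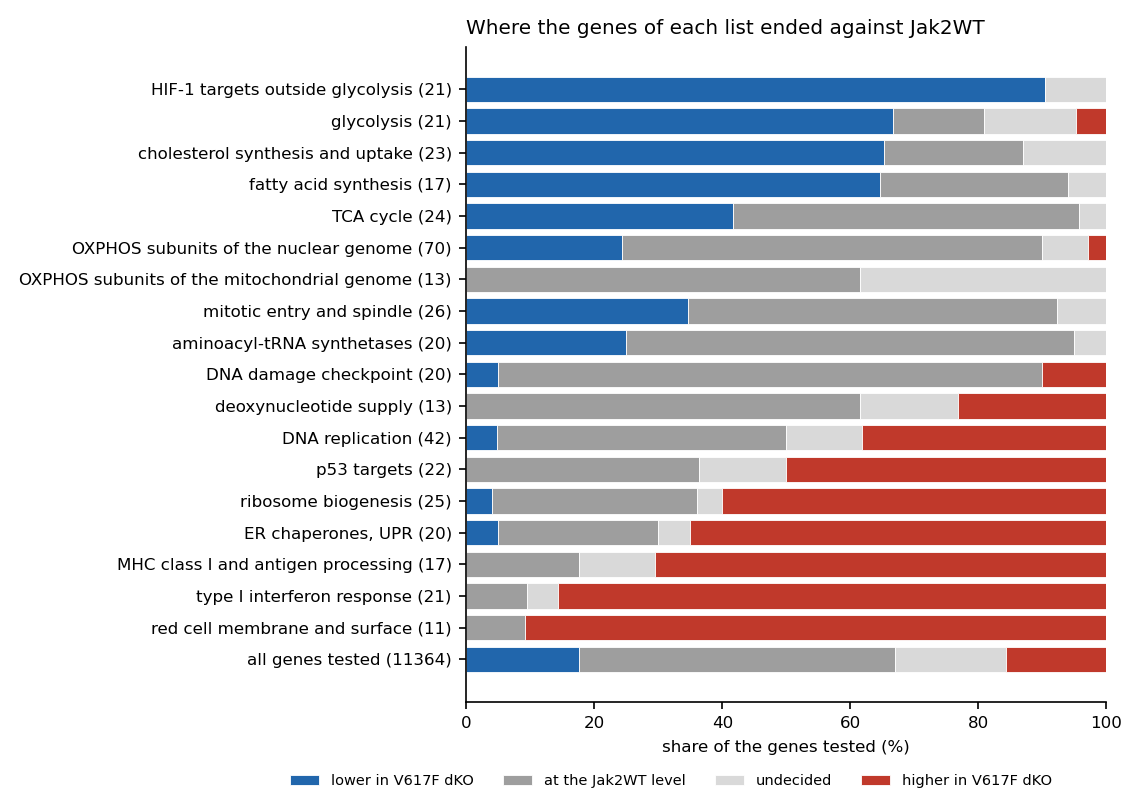
Share of the tested genes of 18 lists, and of all 11364 genes, that were lower (blue), at the Jak2WT level (dark grey), undecided (light grey) or higher (red) in the V617F dKO clones than in the Jak2WT clones, with the number of genes tested in brackets. HIF-1 targets have 19 of 21 genes lower and MHC class I genes 12 of 17 higher. In the interferon and red cell membrane lists, 7 and 2 genes were tested through the V617F dKO clones only.

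Genes of glycolysis ended below the Jak2WT level. Of 21 tested, 14 were lower, 1 was higher and 3 were at the level, with a median of -0.82, against 0.11 in the V617F WT clones. Pgam1, phosphoglycerate mutase, had 433 and 458 FPKM in the Jak2WT clones and 175 and 146 FPKM in the V617F dKO clones, a 2.77-fold lower mean (log2 difference -1.47, SE 0.14, adjusted p = 0.000442). The liver-type phosphofructokinase Pfkl fell from 67.6 and 71.8 to 33.5 and 30.1 FPKM (log2 -1.11, adjusted p = 0.000529) and triosephosphate isomerase Tpi1 from 482 and 525 to 276 and 212 FPKM (log2 -1.05, adjusted p = 0.00203). In each of these genes the 2 clones of a group were close together and the groups did not overlap, as in every gene called. Hexokinase 3 (Hk3), with 158 and 169 FPKM in the Jak2WT clones and 14.0 and 64.7 FPKM in the V617F dKO clones, had the largest difference of the list at -2.39 (adjusted p = 0.0178), but was already low in the V617F WT clones at 27.2 and 36.9 FPKM. Pgk1, phosphoglycerate kinase, and Gpi1, glucose-6-phosphate isomerase, were above the Jak2WT level in the V617F WT clones and below it in the V617F dKO clones. Pgk1 went from 2026 and 1795 FPKM in the V617F WT clones to 724 and 521 FPKM, beside 1183 and 1216 FPKM in the Jak2WT clones. The muscle enolase Eno3 was the member called higher, at 27.4 and 18.7 against 14.4 and 14.9 FPKM. The lactate dehydrogenase subunit Ldha and the pyruvate kinase Pkm were lower, with differences of -0.91 and -0.86, while the regulators Pfkfb2, Pfkfb3 and Pfkfb4 lay at the Jak2WT level. Gapdh, which has many near-identical processed copies in the genome and was listed at only 11.3 and 10.3 FPKM in the Jak2WT clones, is uncertain. No gene of the list was beyond the Jak2WT level without Jak2WT clone 1, Jak2WT clone 3 or V617F WT clone 1, while 1 was without V617F WT clone 3, 5 without V617F dKO clone 1 and 4 without V617F dKO clone 3. The calls of Hk3 and Eno3 were lost without either Jak2WT clone (adjusted p up to 0.0793 and 0.129), and that of Eno3 also without V617F dKO clone 1.

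HIF-1 targets outside glycolysis showed the same end point more uniformly. Of 21 tested, 19 were lower, 0 were higher and 0 were at the Jak2WT level, with a median of -1.28, against 0.17 in the V617F WT clones. Bnip3, a mitophagy receptor, had 236 and 223 FPKM in the Jak2WT clones, 208 and 189.5 FPKM in the V617F WT clones and 39.0 and 30.3 FPKM in the V617F dKO clones, and its mean was 6.62-fold lower than in the Jak2WT clones (log2 difference -2.70, SE 0.16, adjusted p = 8.39e-05). Ero1a, an oxidase of the endoplasmic reticulum, fell from 144 and 120.1 to 27.1 and 30.2 FPKM (log2 -2.16, adjusted p = 5e-04), and Ankrd37 from 10.3 and 9.33 to 2.52 and 1.91 FPKM (log2 -1.75, adjusted p = 0.000125). Groups did not overlap for any of the 19, which held for every gene called and for 70.4% of all genes tested. Selenbp1 (a methanethiol oxidase), Ak4 (an adenylate kinase of mitochondria), Egln1 (the oxygen sensor PHD2), Gys1 (glycogen synthase), Gbe1 (glycogen branching) and Pdk1 (a brake on pyruvate entry into mitochondria) were lower too, with differences between -1.68 and -1.38. Of the 8 members that were higher in the V617F WT clones than in the Jak2WT clones, 7 ended below the Jak2WT level. P4ha1, a collagen prolyl hydroxylase, showed this with 36.4 and 35.8 FPKM in the Jak2WT clones, 83.3 and 72.4 FPKM in the V617F WT clones and 28.0 and 24.2 FPKM in the V617F dKO clones (log2 differences from Jak2WT of 1.08, adjusted p = 0.000715, and -0.46, adjusted p = 0.0133). Ddit4, an inhibitor of mTORC1, rose to 93.6 and 80.3 FPKM in the V617F WT clones and stood at 27.2 and 28.6 FPKM in the V617F dKO clones, against 46.5 and 44.2 FPKM. Ndrg1 and Car9 were undecided, with differences of -0.34 and -0.25. In the Jak2WT GLUT1/3 dKO clones, which were measured against the same Jak2WT libraries, the median of the list was -0.82 and that of glycolysis -0.46. Without Jak2WT clone 3, 3 members were beyond the level, and the lower call of P4ha1 was lost without either Jak2WT clone and without V617F dKO clone 3 (adjusted p up to 0.0742).

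The promoters of the HIF-1 targets Bnip3, Ankrd37 and P4ha1, of the glycolytic Ldha and of Slc2a1 are shown because HIF-1 binds RCGTG, searched here as ACGTG and GCGTG on both strands within the 250 bases upstream of the RefSeq start site (GRCm38.p6, a build other than that of the expression table). Capitals mark the matches, and neighbouring matches on opposite strands can overlap, as in CACGTG. The Bnip3 sequence lies at chr7:138909507-138909756, reverse strand, Ankrd37 at chr8:45999851-46000100, reverse strand, P4ha1 at chr10:59323046-59323295, forward strand, Ldha at chr7:46845554-46845803, forward strand, and Slc2a1 at chr4:119108495-119108744, forward strand.
Bnip3: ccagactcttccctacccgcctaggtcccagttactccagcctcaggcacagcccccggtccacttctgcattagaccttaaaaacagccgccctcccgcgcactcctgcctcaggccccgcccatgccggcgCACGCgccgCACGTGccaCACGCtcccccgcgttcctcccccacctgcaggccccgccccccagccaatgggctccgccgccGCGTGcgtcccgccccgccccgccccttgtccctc
Ankrd37: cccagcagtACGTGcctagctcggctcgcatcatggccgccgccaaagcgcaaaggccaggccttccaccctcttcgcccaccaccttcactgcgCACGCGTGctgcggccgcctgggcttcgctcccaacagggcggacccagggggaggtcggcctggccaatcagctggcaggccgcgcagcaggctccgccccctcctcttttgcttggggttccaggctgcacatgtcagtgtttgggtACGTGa
P4ha1: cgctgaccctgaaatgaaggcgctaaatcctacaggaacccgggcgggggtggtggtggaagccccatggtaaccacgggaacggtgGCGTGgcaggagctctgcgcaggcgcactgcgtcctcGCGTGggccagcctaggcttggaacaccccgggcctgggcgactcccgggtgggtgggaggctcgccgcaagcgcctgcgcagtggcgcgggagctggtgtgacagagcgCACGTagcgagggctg
Ldha: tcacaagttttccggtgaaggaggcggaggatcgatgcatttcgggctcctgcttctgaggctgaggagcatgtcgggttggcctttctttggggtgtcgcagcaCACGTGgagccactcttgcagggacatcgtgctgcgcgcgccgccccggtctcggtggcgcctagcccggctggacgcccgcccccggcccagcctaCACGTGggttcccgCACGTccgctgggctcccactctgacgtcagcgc
Slc2a1: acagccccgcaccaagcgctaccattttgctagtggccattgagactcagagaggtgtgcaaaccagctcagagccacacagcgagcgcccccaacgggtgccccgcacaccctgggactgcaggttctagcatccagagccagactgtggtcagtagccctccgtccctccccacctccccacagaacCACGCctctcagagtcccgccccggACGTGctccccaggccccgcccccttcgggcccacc

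Promoters could be matched to 19 of the 21 HIF-1 targets tested, 29 promoters in all. ACGTG stood in 14 of them (48.3%) and GCGTG in 16 (55.2%). Over the 10124 promoters matched to genes tested, the shares were 22.8% and 45.3%, and over all 32851 promoters 16.6% and 28.2%. Among the 1960 promoters of genes called lower, ACGTG was present in 22.1%, close to the 21.2% of the 1618 promoters of genes called higher, so that the motif did not set the genes called lower apart as a whole. A match is a description of the letters only.

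Genes of lipid synthesis also ended low, but most were low in the Jak2V617F background before the deletions. Of 17 genes of fatty acid synthesis, 11 were lower and 0 higher, with a median of -0.53, and 10 were already lower in the V617F WT clones (median -0.51). Of those not called, 1 had an unadjusted p under 0.05 with a higher level, and without Jak2WT clone 3, 7 were lower. Scd2, a stearoyl-CoA desaturase, went from 347 and 328 FPKM in the Jak2WT clones to 149.5 and 136 FPKM in the V617F WT clones and 53.2 and 59.4 FPKM in the V617F dKO clones. Its difference from the Jak2WT clones was -2.56 (SE 0.091, adjusted p = 1.61e-05), and the 3 groups did not overlap. The elongase Elovl5 had 50.7 and 55.3 FPKM against 21.4 and 23.6 FPKM (log2 -1.20, adjusted p = 0.000149). Fasn, the fatty acid synthase, was an exception, since it was lower in the V617F WT clones at 19.4 and 19.2 FPKM and was at the Jak2WT level in the V617F dKO clones, with 33.5 and 33.1 against 27.0 and 29.0 FPKM. Of 23 genes of cholesterol synthesis and uptake, 15 were lower and 0 higher (median -0.59, and -0.48 in the V617F WT clones). They included Cyp51 (log2 -1.32) and Hmgcs1 (-1.17), enzymes of cholesterol synthesis.

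In the mitochondria, the lists divided. Of 24 genes of the tricarboxylic acid cycle, 10 were lower and 13 at the Jak2WT level, with a median of -0.26. None was called higher by limma, although 1 was by voom and 1 had an unadjusted p under 0.05, and without Jak2WT clone 3, 4 were lower. The isocitrate dehydrogenases Idh1 and Idh2 led, with Idh2 at 43.4 and 52.0 FPKM in the Jak2WT clones and 19.5 and 19.4 FPKM in the V617F dKO clones (log2 -1.24, adjusted p = 0.000442), and both moved further from the Jak2WT level than in the V617F WT clones. Of 70 nuclear subunits of oxidative phosphorylation, 46 were at the level, 17 lower and 2 higher (median -0.15). With every library scaled to the same summed FPKM 28 were lower, and without an expression filter 10. Without Jak2WT clone 1 or V617F dKO clone 1, 7 nuclear subunits were lower, and without Jak2WT clone 3, 4. Of the 13 subunits encoded in mitochondrial DNA, 8 were at the level and none was called by limma, while 2 had an unadjusted p under 0.05 with a lower level and voom called 3 lower. Mitochondrial fatty acid oxidation had 4 lower and 1 higher of 17, led by Echs1 at -0.83. Without either clone of the Jak2WT GLUT1/3 dKO group, 11 nuclear subunits were lower, and the 2 higher calls fell to 0 without Jak2WT clone 1 and to 1 without Jak2WT clone 3 or V617F dKO clone 3. Also, 1 mitochondrially encoded subunit was called lower without either V617F WT clone or V617F dKO clone 1. In fatty acid oxidation, the higher call was lost without either Jak2WT clone, and 2 genes were higher without either V617F WT clone or V617F dKO clone 3.

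Among other routes of glucose use, Pgm1, phosphoglucomutase, fell from 70.7 and 71.9 to 21.5 and 24.6 FPKM (log2 -1.59, adjusted p = 8.7e-05). Of 11 genes of the pentose phosphate pathway, in which -1.59 was the lowest difference, 3 were lower, 1 higher and 6 at the Jak2WT level. Of 8 of the hexosamine pathway, 2 were lower and 5 at the level, beside 49.5% at the level over all genes. Txnip, an inhibitor of glucose uptake whose gene is induced by glucose, had 54.4 and 62.0 FPKM in the Jak2WT clones, 24.6 and 29.2 FPKM in the V617F WT clones and 17.6 and 17.9 FPKM in the V617F dKO clones (log2 -1.65, adjusted p = 0.000966). Mlx, a partner of the glucose-sensing factor MondoA, was higher by 0.41. That call was lost without Jak2WT clone 1 (adjusted p = 0.0621). No gene of the hexosamine pathway was called higher, and 1 had an unadjusted p under 0.05 with a higher level.

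Most chaperones of the endoplasmic reticulum lay below the Jak2WT level in the V617F WT clones, and most were above it in the V617F dKO clones. Of 20 genes of this list, 13 were higher and 1 was lower in the V617F dKO clones (median 0.53), whereas the median in the V617F WT clones was -0.44 and 11 members were lower and 3 higher there. Hspa5, the chaperone BiP, had 238 and 247 FPKM in the Jak2WT clones, 189 and 152 FPKM in the V617F WT clones and 472 and 499.6 FPKM in the V617F dKO clones. Its mean was 2.01-fold that of the Jak2WT clones (log2 1.00, SE 0.11, adjusted p = 0.000877), and no clone of the 3 groups overlapped another group. Manf, Creld2, Sdf2l1, Dnajb11, Hyou1, Pdia4 and Dnajc3, which assist folding, were with Hspa5 the 8 members that went beyond the Jak2WT level. Calr, calreticulin, which was lower in the V617F WT clones at 275 and 219 FPKM, was at the level with 572 and 598 FPKM against 459.9 and 527, and Ern1, the sensor IRE1, was the member called lower (-0.78). In the Jak2WT GLUT1/3 dKO clones, the median of the list was 1.02. Without either Jak2WT clone, 5 members were beyond the level. The call of Pdia4 was lost without Jak2WT clone 1, that of Dnajc3 in 7 of 19 alternatives, and that of Ern1 without Jak2WT clone 1 and without V617F dKO clone 1. Without V617F dKO clone 3, 2 members were lower.

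Genes of amino acid supply that were high in the V617F WT clones mostly lay at or below the Jak2WT level in the V617F dKO clones. Targets of the transcription factor ATF4 and the aminoacyl-tRNA synthetases had been higher in the V617F WT clones, with medians of 0.63 and 0.34, and ended at -0.23 and -0.17. Of 20 synthetases, 10 were higher in the V617F WT clones. Of these 6 returned to the Jak2WT level and 3, Iars, Mars1 and Nars, ended below it. No synthetase was beyond the level without either Jak2WT clone, 1 was without V617F WT clone 3 or V617F dKO clone 1, and 11 returned without the latter. Of 12 ATF4 targets, 9 were higher in the V617F WT clones. Of these 3 returned, 2 ended below the Jak2WT level, 2, Sesn2 and Cebpb, stayed high and 2 were undecided, and in all 2 were higher and 5 lower in the V617F dKO clones. The call of Sesn2 was lost in 6 of 19 alternatives. Of these targets, 3 were lower, 1 was higher and 0 were beyond without either Jak2WT clone, while without V617F dKO clone 1, 1 was beyond, and without V617F dKO clone 3, 1 was higher. Atf4 itself had 106 and 111 FPKM in the Jak2WT clones, 177 and 182 FPKM in the V617F WT clones and 107 and 115 FPKM in the V617F dKO clones, and its interval placed it at the Jak2WT level (log2 0.034, 95% interval -0.15 to 0.22). Asns, asparagine synthetase, went from 125 and 142 FPKM in the V617F WT clones to 47.6 and 57.6 FPKM, below the 72.6 and 73.0 FPKM of the Jak2WT clones (log2 -0.47, adjusted p = 0.019), a call lost without either Jak2WT clone and without V617F dKO clone 1. Nupr1, a stress-induced nuclear protein tested through the Jak2WT clones only, fell from 4.97 and 4.91 to 0.172 and 0.331 FPKM (log2 -2.25). All 5 amino acid transporters called higher in the V617F WT clones, Slc7a1, Slc7a5, Slc3a2, Slc1a4 and Slc38a2, were back at the Jak2WT level. Without V617F dKO clone 1, 3 transporters returned and 1 was beyond the level. The cystine carrier Slc7a11 was lower (-1.39), and Slc43a1, which carries large neutral amino acids, was higher at 23.1 and 21.1 against 5.10 and 5.19 FPKM (log2 1.91, adjusted p = 5.87e-05).

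Ribosome biogenesis ended high. Of 25 genes, 15 were higher and 1 was lower, with a median of 0.36, against 0.25 in the V617F WT clones. Without Jak2WT clone 1, 7 were higher. Rrp12, which exports pre-ribosomes, had 16.1 and 16.3 FPKM in the Jak2WT clones and 30.5 and 28.6 FPKM in the V617F dKO clones (log2 0.82, adjusted p = 0.00111). Rrp9, Mybbp1a, Nop2 and Polr1a, the large subunit of RNA polymerase I, followed at 0.56 to 0.68. Myc, their main driver, was higher in the V617F WT clones at 160.2 and 154 FPKM and was at the Jak2WT level in the V617F dKO clones, with 124 and 104 against 101 and 105 FPKM. The lower call was lost with any single clone left out, and that of Nop2 without Jak2WT clone 1.

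Genes of DNA replication crossed the Jak2WT level or came back to it. In the V617F WT clones, 34 of 42 had been lower and 1 higher than in the Jak2WT clones (median -0.61). In the V617F dKO clones, 16 were higher, 2 lower and 19 at the level (median 0.25). Of the genes that had departed, 14 ended beyond the Jak2WT level, 16 returned, 1 stayed short and 4 were undecided. Without Jak2WT clone 1, 6 were higher and 3 beyond, without Jak2WT clone 3, 9 and 5, and without V617F dKO clone 3, 8 and 6, while the median lay between 0.18 and 0.31 with any single clone left out. Without Jak2WT clone 3, 4 returned. Pcna, the sliding clamp, had 106 and 115 FPKM in the Jak2WT clones, 83.8 and 68.8 FPKM in the V617F WT clones and 191 and 192 FPKM in the V617F dKO clones. Its mean in the V617F dKO clones was 1.73-fold that of the Jak2WT clones (log2 0.79, SE 0.13, adjusted p = 0.00361), and the 3 groups did not overlap. Cdc6, which loads the helicase, went from 4.98 and 3.00 FPKM in the V617F WT clones to 20.3 and 21.8 FPKM, against 10.7 and 10.5 FPKM (log2 0.93, adjusted p = 0.00789). Rpa2, a subunit of the single-strand binding complex, the helicase subunits Mcm6 and Mcm4, the helicase partner Gins1, the nuclease Dna2 and the polymerase subunit Pola2 went the same way, with differences of 0.37 to 0.91. Other helicase subunits, Mcm2 and Mcm3, returned, with differences of 0.19 and 0.073. Rpa3 was short of the Jak2WT level at 26.3 and 27.3 against 39.7 and 41.6 FPKM. The call of Gins1 was lost without Jak2WT clone 1, those of Dna2 and Pola2 without either Jak2WT clone and without V617F dKO clone 3, and that of Mcm4 without any 1 of the 4 clones compared.

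Of 13 genes that supply deoxynucleotides, 8 had been lower in the V617F WT clones. Of these 5 returned, 1, Dck, went beyond the Jak2WT level, with a call lost without either Jak2WT clone and without V617F dKO clone 1, and 2 were undecided. Of all 13, 8 were at the level in the V617F dKO clones, 3 higher and 0 lower. Rrm2, the inducible subunit of ribonucleotide reductase, had 66.7 and 70.7 FPKM in the Jak2WT clones, 27.6 and 21.96 FPKM in the V617F WT clones and 71.2 and 70.7 FPKM in the V617F dKO clones (log2 0.046, 95% interval -0.27 to 0.36). The V617F dKO clones overlapped the Jak2WT clones, while both V617F WT clones lay far below. Tyms, thymidylate synthase, and the dUTPase Dut gave the same picture, with differences of -0.011 and -0.074.

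Checkpoint genes were mostly at the Jak2WT level, 17 of 20. Chek1, the kinase CHK1, had 9.28 and 10.2 FPKM in the Jak2WT clones, 5.28 and 4.91 FPKM in the V617F WT clones and 10.2 and 13.9 FPKM in the V617F dKO clones. It was lower in the V617F WT clones than in the Jak2WT clones (log2 -0.81, adjusted p = 0.00462) and at the Jak2WT level in the V617F dKO clones (log2 0.27, 95% interval -0.041 to 0.58), though the V617F dKO clones differed from each other. Clspn, the adaptor claspin, was beyond it at 24.0 and 25.3 against 14.0 and 15.0 FPKM (log2 0.73, adjusted p = 0.0127). In homologous recombination, 13 of 23 were at the level. Brca1 was beyond it (9.81 and 9.50 FPKM, 4.32 and 3.55 FPKM in the V617F WT clones and 13.2 and 15.3 FPKM in the V617F dKO clones). Palb2, its partner, was high in both Jak2V617F groups, with 11.0 and 13.4 and 8.84 and 12.5 FPKM against 3.31 and 2.81. In base excision and mismatch repair, 14 of 19 were at the level. None was called higher, and 1 had an unadjusted p under 0.05. Without either V617F WT clone, 1 of them was called higher. The calls of Clspn and Brca1 were lost without either Jak2WT clone (adjusted p up to 0.0706 and 0.0775), and that of Brca1 also without V617F dKO clone 3.

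Of 13 E2F factors and pocket proteins, 6 were higher and 2 lower. E2f1, an activator of S-phase genes, had 5.65 and 7.04 FPKM in the Jak2WT clones, 4.71 and 4.20 FPKM in the V617F WT clones and 10.4 and 10.6 FPKM in the V617F dKO clones (log2 0.65, SE 0.12, adjusted p = 0.00691). E2f2 was higher at 26.1 and 14.2 against 5.67 and 5.42 FPKM, with clone 1 above clone 3 (log2 1.63, adjusted p = 0.00283), and the repressive E2f5 was lower (-0.84). The G1 cyclin Ccne1 returned from 6.05 and 4.05 FPKM in the V617F WT clones to 20.9 and 17.8 FPKM, beside 16.4 and 18.4 FPKM in the Jak2WT clones, while the cyclins Ccne2 and Ccnd3 were higher by 1.04 and 0.98. The G1 kinase Cdk6 and the inhibitor Cdkn1b were lower, with differences of -1.19 and -1.02. Without Jak2WT clone 1, 1 of the E2F factors and pocket proteins was lower.

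Genes of mitosis lay at or below the Jak2WT level. Of 26, 9 were lower, 0 were higher and 15 were at the Jak2WT level (median -0.25, against -0.50 in the V617F WT clones), and without either Jak2WT clone 3 were lower. The polo-like kinase Plk1 had 60.1 and 64.0 FPKM in the Jak2WT clones and 30.0 and 36.4 FPKM in the V617F dKO clones (log2 -0.89, adjusted p = 0.00126), close to the 31.0 and 30.2 FPKM of the V617F WT clones. The proliferation marker Mki67 and the spindle checkpoint kinase Bub1b were short of the Jak2WT level, with Mki67 at 115 and 109 FPKM in the Jak2WT clones, 42.9 and 49.7 FPKM in the V617F WT clones and 70.0 and 74.0 FPKM in the V617F dKO clones. The kinases Aurkb and Cdk1 and the topoisomerase Top2a returned. The calls of Mki67 and Bub1b were lost without either Jak2WT clone and without V617F dKO clone 1 (adjusted p up to 0.0944 and 0.108).

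**Figure D3:**
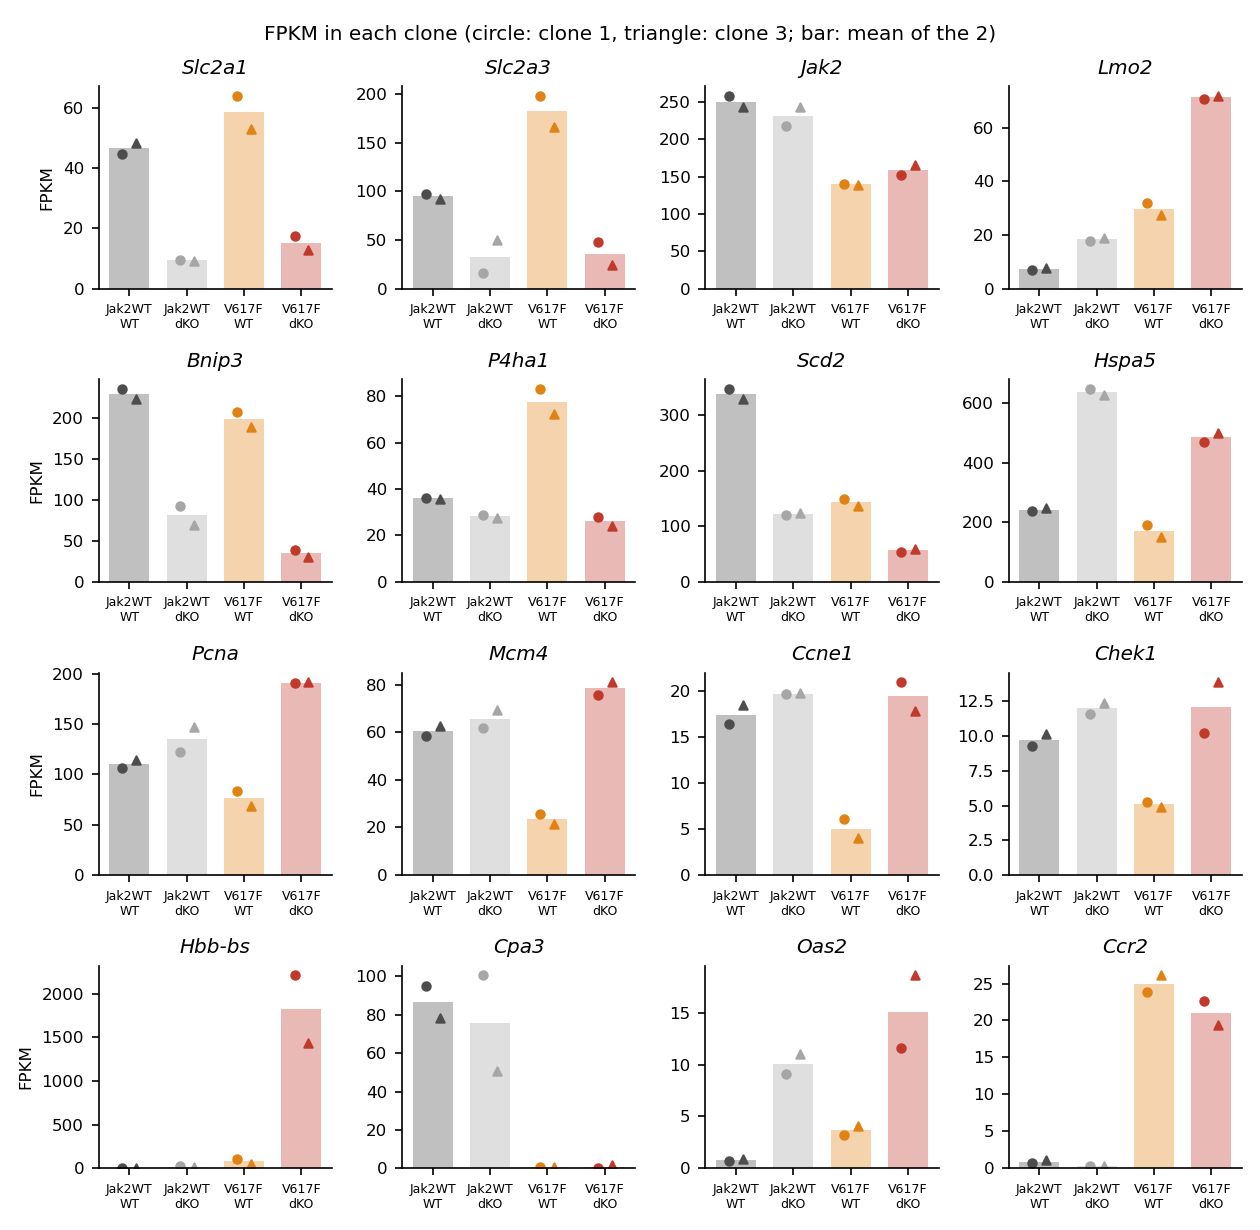
FPKM of 16 genes in each of the 8 clones (vertical axes, linear, from 0), by group, with circles for clone 1, triangles for clone 3 and bars at the mean of the 2 clones. Pcna and Hspa5 ended above, Ccne1 and Chek1 at, and Bnip3 and Scd2 below the Jak2WT clones, while Lmo2 and Ccr2 lay above and Cpa3 below the Jak2WT clones in both Jak2V617F groups.

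**Figure D4:**
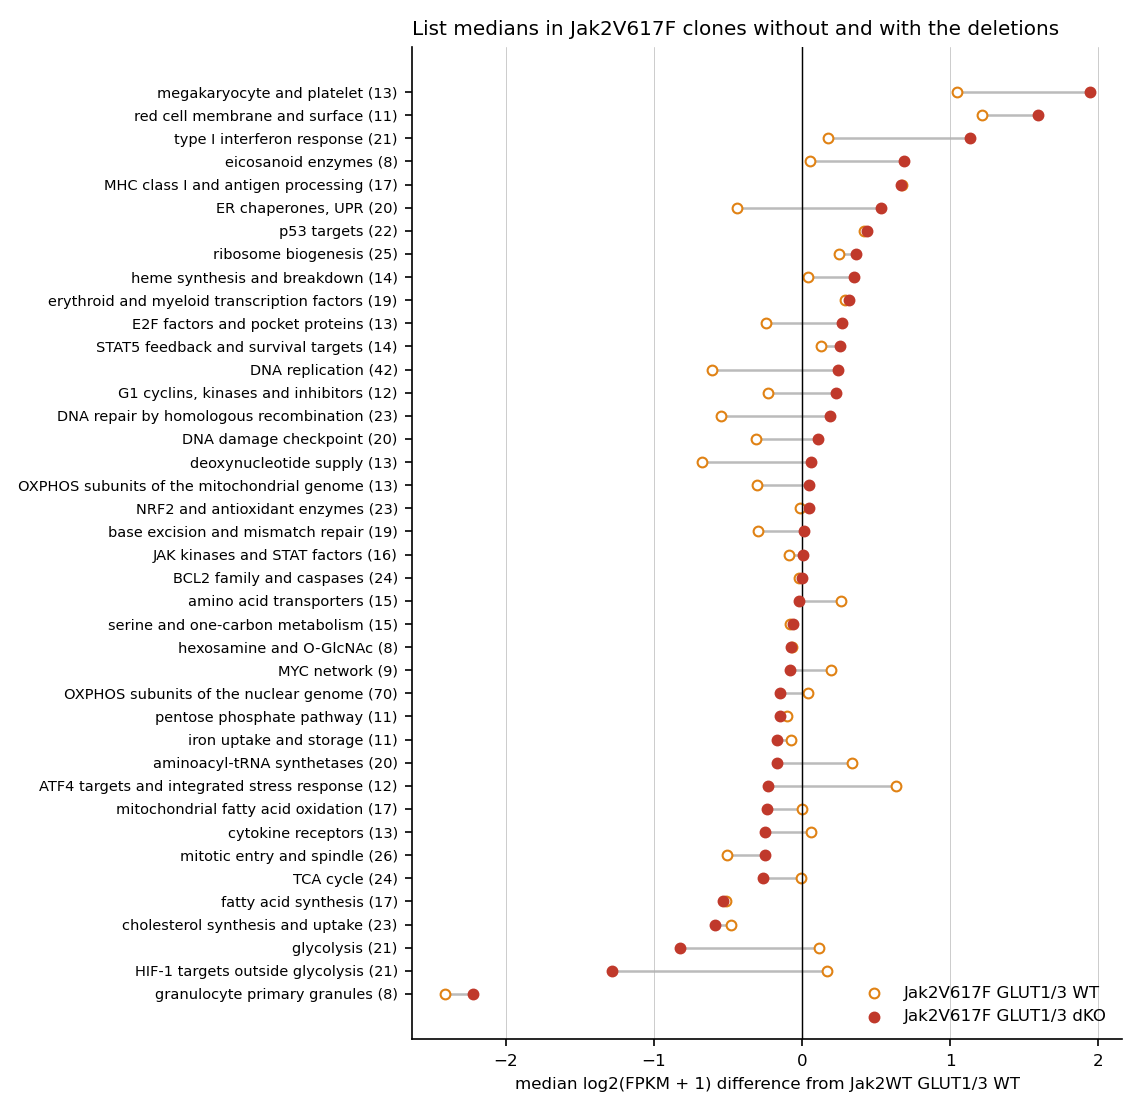
Median log2(FPKM + 1) difference from the Jak2WT clones (horizontal axis) of each list with at least 8 genes tested, in the V617F WT clones (open orange circles) and the V617F dKO clones (filled red circles), with the number of genes tested in brackets. DNA replication and the chaperones cross from below to above 0, the ATF4 targets and HIF-1 targets from above to below, and fatty acid and cholesterol synthesis stay low. Both sets of circles are measured against the same Jak2WT libraries. Genes that the filter let in through 1 group only are included.

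Targets of p53 were already high in the Jak2V617F background. Of 22 tested, 11 were higher in the V617F dKO clones and 0 lower (median 0.44, and 0.42 in the V617F WT clones), although 1 was called lower by voom and 1 had an unadjusted p under 0.05. Without either Jak2WT clone, 7 were higher, and without V617F dKO clone 3, 1 was lower. Ccng1, cyclin G1, had 67.0 and 68.9 FPKM in the Jak2WT clones, 186 and 171 FPKM in the V617F WT clones and 206 and 176 FPKM in the V617F dKO clones (log2 1.48, adjusted p = 0.000149), and the antiproliferative Btg2, the RNA-binding Zmat3, the AKT inhibitor Phlda3 and the exonuclease Aen were higher by 0.97 to 1.63. Pidd1, the scaffold of the PIDDosome, differed from these, with 5.10 and 4.76 FPKM in the Jak2WT clones, 2.13 and 2.70 FPKM in the V617F WT clones and 8.55 and 8.29 FPKM in the V617F dKO clones. It crossed the Jak2WT level, with no overlap between the 3 groups (log2 0.67, SE 0.15, adjusted p = 0.0137), but its call was lost without either Jak2WT clone and without V617F dKO clone 1 (adjusted p up to 0.0784). That of Phlda3 was lost without either Jak2WT clone. Cdkn1a, the inhibitor p21, was at the level (0.20). In the BCL2 family, the survival factor Bcl2 fell from 75.0 and 72.9 to 10.5 and 18.6 FPKM (log2 -2.32, adjusted p = 0.00056) and its relative Bcl2l1 rose from 16.2 and 19.5 to 69.6 and 47.8 FPKM (log2 1.64, adjusted p = 0.000873). The death factors Bcl2l11 (BIM) and Bax were higher by 1.22 and 0.81. All of these differed in the same direction in the V617F WT clones, with 21.4 and 17.1 FPKM for Bcl2 and 48.0 and 39.7 FPKM for Bcl2l1.

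Erythroid genes held the largest increases. Of 9 globin genes listed, 7 were tested, and 6 of these were under 1 FPKM in both Jak2WT clones and entered only through the V617F dKO clones, so that their number and median carry no weight and their levels are given as a description. Hbb-bs, adult beta globin, had 0.0329 and 0.0751 FPKM in the Jak2WT clones, 1 read each, 109.8 and 50.5 FPKM in the V617F WT clones and 2209 and 1437 FPKM in the V617F dKO clones (log2 10.72). Hba-a1, adult alpha globin, had 46.7 and 66.3 FPKM in the Jak2WT clones, 709 and 430.2 FPKM in the V617F WT clones and 2007 and 993 FPKM in the V617F dKO clones, a 26.5-fold higher mean (log2 4.64, adjusted p = 0.000234). In both genes these groups were far apart, and clone 1 exceeded clone 3 in each Jak2V617F group. The Jak2WT GLUT1/3 dKO clones, measured against the same Jak2WT libraries, had 21.97 and 15.88 FPKM of Hbb-bs (log2 4.22, limma adjusted p = 0.00179). Their difference for Hba-a1 was 1.82, so that higher levels of these genes were not confined to the Jak2V617F background. Hbb-y, Hba-x, Hbb-bh1 and Hba-a2 were not called in the Jak2WT GLUT1/3 dKO clones (limma adjusted p of 0.255 to 0.737). The embryonic Hbb-y, listed at 0 in both Jak2WT clones, had 109.9 and 26.6 FPKM in the V617F dKO clones, a mean at least 250-fold higher than 3 reads in the shallower Jak2WT library would give, although voom did not call it (adjusted p = 0.0615). Globin genes are near-identical paralogs, and how reads were shared between them is uncertain.

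Of 11 genes of the red cell membrane, 10 were higher and 0 lower. Kel and Tspo2 were tested through the V617F dKO clones only, and of the other 9 genes 8 were higher (median 0.99, and 0.76 in the V617F WT clones). The blood group protein Kel had 0 and 0.0624 FPKM in the Jak2WT clones, 10.8 and 11.0 FPKM in the V617F WT clones and 85.7 and 69.1 FPKM in the V617F dKO clones (log2 6.24). Rhag, an ammonium channel of the red cell membrane, went from 6.18 and 10.3 to 89.3 and 97.3 FPKM (log2 3.39, adjusted p = 5.87e-05), below the 133 and 133 FPKM of the V617F WT clones. Slc4a1, the anion exchanger band 3 of later red cell precursors, stayed near 0, with at most 0.312 FPKM in the 4 libraries. In heme synthesis, Alad was higher at 86.1 and 67.5 against 17.6 and 20.4 FPKM (log2 1.95, adjusted p = 0.000158), while the erythroid Alas2 did not exceed 0.227 FPKM. Hmox1, which breaks heme down, was higher in the V617F WT clones at 69.2 and 56.6 FPKM and lower in the V617F dKO clones at 17.5 and 17.8, against 43.2 and 42.9 FPKM (log2 -1.24, adjusted p = 0.000465). The transferrin receptor Tfrc returned to the level (-0.13), though with 203 and 134 FPKM its V617F dKO clones lay on both sides of the Jak2WT clones.

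Megakaryocyte and platelet genes were higher in 10 and lower in 2 of 13. Of these 5 were tested through the V617F dKO clones only and 1, Thbs1, through the Jak2WT clones, and of the other 7, 5 were higher and 1 lower (median 1.51, and 1.48 in the V617F WT clones). Itgb3, the platelet integrin beta 3, had 2.08 and 1.89 FPKM in the Jak2WT clones, 78.9 and 73.1 FPKM in the V617F WT clones and 107 and 51.2 FPKM in the V617F dKO clones (log2 4.65, SE 0.28, adjusted p = 8.96e-05), and its partner Itga2b was 2.88-fold higher. Pf4 and Ppbp, platelet chemokines listed at 0 in both Jak2WT clones, had 28.2 and 2.03 and 18.5 and 3.92 FPKM in the V617F dKO clones, with clone 1 well above clone 3. The call of Pf4 was lost in 6 of 19 alternatives. Thbs1, thrombospondin, was lower in both Jak2V617F groups, at 0.0426 and 0.00653 FPKM in the V617F dKO clones against 14.1 and 5.13 (log2 -3.23). Without either Jak2WT clone, 1 of the 2 lower calls of the list was lost.

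Most granule genes tested were lower than in the Jak2WT clones, as was 1 gene of mast cells. Cpa3, the mast cell carboxypeptidase, had 94.8 and 78.2 FPKM in the Jak2WT clones, 0.554 and 0.531 FPKM in the V617F WT clones and 0 and 1.67 FPKM in the V617F dKO clones (log2 -5.74, SE 0.46, adjusted p = 0.000239). It was the only one called of the 20 mast cell and basophil genes listed, of which 4 were tested and the other 3 lay at the Jak2WT level, and the proteases Tpsb2 and Mcpt1 and the receptor Kit were listed at 0 in the 4 libraries. Of 8 granule genes tested, 5 were lower, among them S100a9 at 0.165 and 3.80 against 88.8 and 38.3 FPKM (log2 -4.65, adjusted p = 0.00245) and Ngp at 1.11 and 8.76 against 88.1 and 30.9 FPKM (log2 -3.56, adjusted p = 0.00877), and 2, Lyz2 and Mmp9, were higher. Mmp9 was tested through the V617F dKO clones only and Ltf and Mmp8 through the Jak2WT clones, which leaves 3 of 5 lower and 1 higher. The Jak2WT clones themselves differed for these genes, clone 1 having 88.8 FPKM of S100a9 and clone 3 38.3, and the groups did not overlap, as in every gene called. The eosinophil genes Epx and Prg2 were lower as well. Prg2, the major basic protein, had 89.4 and 62.7 FPKM in the Jak2WT clones, 0.334 and 1.40 FPKM in the V617F WT clones and 4.91 and 12.2 FPKM in the V617F dKO clones, short of the Jak2WT level (log2 -3.11, adjusted p = 0.00209). Without Jak2WT clone 1, 3 granule genes were lower, and 1 was higher without either Jak2WT clone or V617F dKO clone 1. The calls of Ngp (adjusted p = 0.0524) and Mmp9 were lost without Jak2WT clone 1, that of Lyz2 without Jak2WT clone 3 or V617F dKO clone 1, and that of Mmp8 without Jak2WT clone 1 or either V617F dKO clone.

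Of 19 transcription factors of these lineages, 7 were higher and 3 lower. Lmo2, a bridge of the erythroid GATA1 and TAL1 complex, had 6.77 and 7.69 FPKM in the Jak2WT clones, 31.9 and 27.5 FPKM in the V617F WT clones and 70.7 and 72.0 FPKM in the V617F dKO clones (log2 3.14, SE 0.098, adjusted p = 1.3e-05). Tal1 and Zfpm1, the GATA1 cofactor, were higher by 1.04 and 1.16, while Gata1 was undecided (0.32) and Gata2 at the level. Cebpe, a factor of granule genes, fell from 44.2 and 41.9 to 4.20 and 6.80 FPKM (log2 -2.79, adjusted p = 0.000108), and Myb from 43.5 and 41.1 to 15.1 and 21.1 FPKM (log2 -1.20, adjusted p = 0.00325).

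Promoters of Hbb-bs and Cpa3, which mark the extremes, and of Kel are shown with the GATA letters AGATAA, searched on both strands, in capitals (250 bases upstream of the RefSeq start, GRCm38.p6). Hbb-bs lies at chr7:103827929-103828178, reverse strand, Kel at chr6:41704326-41704575, reverse strand and Cpa3 at chr3:20242182-20242431, reverse strand.
Hbb-bs: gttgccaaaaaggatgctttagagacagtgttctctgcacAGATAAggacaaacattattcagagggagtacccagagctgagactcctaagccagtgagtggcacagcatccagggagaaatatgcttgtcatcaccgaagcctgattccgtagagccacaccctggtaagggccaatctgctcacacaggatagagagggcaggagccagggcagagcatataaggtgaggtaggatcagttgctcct
Kel: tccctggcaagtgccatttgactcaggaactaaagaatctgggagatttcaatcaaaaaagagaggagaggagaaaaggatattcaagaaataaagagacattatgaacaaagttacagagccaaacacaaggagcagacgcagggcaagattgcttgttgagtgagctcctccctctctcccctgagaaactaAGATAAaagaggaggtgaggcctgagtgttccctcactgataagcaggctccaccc
Cpa3: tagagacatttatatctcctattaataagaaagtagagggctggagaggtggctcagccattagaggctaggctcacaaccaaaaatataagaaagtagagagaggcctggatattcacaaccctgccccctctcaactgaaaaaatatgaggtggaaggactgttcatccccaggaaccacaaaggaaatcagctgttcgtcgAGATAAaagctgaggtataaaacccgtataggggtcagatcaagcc

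Each holds 1 match, and Cpa3 is among the largest decreases. Among promoters of list genes tested, AGATAA stood in 1 of 6 for the globins, 3 of 10 for the red cell membrane and 2 of 9 for megakaryocytes and platelets. AGATAA stood in 9.99% of all promoters, 5.78% of those of genes tested, 6.49% of those of genes called higher and 5.20% of those of genes called lower, and the STAT letters TTCNNNGAA in 7.02%, 5.98%, 7.48% and 5.51%.

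Type I interferon response genes ended above the Jak2WT level. Of 21 tested, 18 were higher and 0 were lower in the V617F dKO clones. Irf7, Oas2, Oasl2, Mx1, Usp18, Ifih1 and Xaf1 were tested through these clones only. Of the other 14, 11 were higher (median 1.01), against a median of 0.20 in the V617F WT clones, where 3 were called. As a description, since the filter fixed its direction, Oas2, which senses double-stranded RNA, had 0.749 and 0.894 FPKM in the Jak2WT clones. It had 3.25 and 4.07 FPKM in the V617F WT clones and 11.6 and 18.6 FPKM in the V617F dKO clones (log2 3.11). Isg15, the ubiquitin-like modifier, had 0.934 and 1.15 FPKM against 4.71 and 8.97 FPKM (log2 1.89, adjusted p = 0.0013). The regulator Irf7, also with its direction fixed by the filter, had 0.508 and 0.611 against 3.09 and 5.74 FPKM (log2 1.75). Levels were low, since Isg15, Irf7, Oas3, Usp18 and Oasl2 stayed under 10 FPKM in the 4 libraries. The groups did not overlap in any member called, as was so for every gene called and for 70.4% of all genes tested. The factors Irf1 and Stat2 were at the Jak2WT level. In the Jak2WT GLUT1/3 dKO clones, the median of the 14 was 0.73.

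MHC class I and antigen processing genes were higher in 12 of 17 and lower in 0, with nearly equal medians in the V617F dKO clones (0.67) and the V617F WT clones (0.68). B2m, the light chain, had 210.1 and 228 FPKM in the Jak2WT clones, 613 and 585 FPKM in the V617F WT clones and 499 and 551 FPKM in the V617F dKO clones (log2 1.26, adjusted p = 0.00017). The transporters Tap1 and Tap2 and the proteasome subunit Psmb9 were the 3 members short of the Jak2WT level, with Tap1 at 11.6 and 10.9, 32.3 and 31.4 and 19.4 and 21.1 FPKM in the 3 groups. Nlrc5, the activator of this set, was higher by 2.01 and had moved further. Without V617F dKO clone 3, 1 was called lower.

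Among JAK kinases and STAT factors, 4 were higher and 5 lower of 16. Without either Jak2WT clone, 1 was higher. Stat3 and Jak3 were short of the Jak2WT level, Stat3 with 16.6 and 17.7 FPKM in the Jak2WT clones, 32.4 and 29.0 FPKM in the V617F WT clones and 23.7 and 20.5 FPKM in the V617F dKO clones (log2 0.34, adjusted p = 0.0318). Stat5b was lower (-0.79) and Stat5a was at the level. The feedback inhibitors Cish and Socs2 and the kinase Pim1 were at the level, Pim1 after 223 and 214 FPKM in the V617F WT clones, while Socs3 was higher (0.75) and Socs1 short of the level at 1.45 and 1.30 against 2.36 and 3.43 FPKM. The calls of Stat3, Socs1 and Socs3 were each lost without Jak2WT clone 3 and without V617F dKO clone 1, those of Stat3 and Socs3 also without Jak2WT clone 1 or either clone of the Jak2WT GLUT1/3 dKO group, and that of Socs1 without V617F dKO clone 3. Il2ra, a STAT5 target tested through the Jak2WT clones only, was lower in both Jak2V617F groups, with 0.0705 and 0.986 FPKM in the V617F dKO clones against 27.1 and 23.2 (log2 -4.16). The shared beta chains of the IL-3 receptor, Csf2rb and Csf2rb2, which are close paralogs, fell to 55.4 and 48.9 and 62.5 and 56.2 FPKM from 189.9 and 162 and 236 and 207 (log2 -1.73 and -1.88). The ligand-binding chain Il3ra was higher by 0.29 and Epor, the erythropoietin receptor, by 0.77.

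In eicosanoid synthesis, 5 of 8 were higher and 2 lower. Alox5, the leukotriene-forming lipoxygenase, had 2.65 and 2.08 FPKM in the Jak2WT clones, 0.580 and 0.784 FPKM in the V617F WT clones and 20.3 and 9.28 FPKM in the V617F dKO clones, and of the 195 genes beyond the Jak2WT level it had the highest difference (log2 2.14, adjusted p = 0.00214). No gene of this list was beyond the level without any 1 of the 6 clones of the other groups. Anxa1, annexin A1, was near the Jak2WT level in the V617F WT clones at 19.1 and 20.4 FPKM and fell to 0.721 and 1.58 FPKM, against 29.5 and 17.9 (log2 -3.51, adjusted p = 0.000356). Antioxidant genes went both ways, with 6 higher and 5 lower of 23.

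By the size of their difference in the V617F WT clones, the leading genes of each end point had other functions too. Wwox, an oxidoreductase, returned, with 1.85 and 1.63 FPKM in the Jak2WT clones, 26.8 and 23.01 FPKM in the V617F WT clones and 1.48 and 1.58 FPKM in the V617F dKO clones (log2 -0.11, 95% interval -0.35 to 0.13). The tubulin Tuba4a, the Rab regulator Tbc1d2b, the Ras activator Rasgrp2 and the chromatin assembly factor Chaf1b returned from below, and the Fc receptor Fcgr1 and the annexin Anxa5 from above. Il15, a cytokine, went beyond the level with 2.24 and 2.04, 6.05 and 7.66 and 1.45 and 1.23 FPKM in the same order of groups (log2 -0.43, adjusted p = 0.0489), although this call was lost in 14 of 19 alternatives. Cfp, properdin, went beyond it with 17.5 and 17.1, 33.1 and 49.4 and 2.52 and 6.23 FPKM (log2 -1.86, adjusted p = 0.00781). Tgm2, transglutaminase 2, ended short of it from above, with 17.0 and 13.5, 177 and 198 and 66.4 and 44.3 FPKM (log2 1.77, adjusted p = 0.000706), and the protease Ctse and the genes Gm45353 and Gm32468 did too. The growth regulator Slfn2 and the gene Gm35037 were short of it from below, at -0.92 and -1.46, the latter with its call lost in 10 of 19 alternatives. The call of Slfn2 was lost without either Jak2WT clone.

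The other largest differences lay outside the lists. Fgf23, a phosphate-regulating hormone, was higher at 78.0 and 79.9 against 0.947 and 2.73 FPKM (log2 4.89, adjusted p = 0.00032). Parvb, an integrin adaptor, stood at 50.7 and 32.8 against 0.543 and 0.405 FPKM (log2 4.83). Cylc1, a cytoskeletal protein of sperm, stood at 47.6 and 10.4 against 0.0365 and 0 FPKM (log2 4.53, not called by voom, adjusted p = 0.0868). Parvb and Cylc1 were tested through the V617F dKO clones only, which fixed their direction. Scin, an actin-severing protein, was lower at 0.163 and 8.75 against 141 and 106 FPKM (log2 -5.19, adjusted p = 0.00739) with very unequal V617F dKO clones. St6gal1, a sialyltransferase, was lower at 0 and 0.0484 against 32.0 and 29.6 FPKM (log2 -4.96), and was tested through the Jak2WT clones only. Clnk, an adaptor of immune receptors, and the T cell receptor segment Trbv13-2 were lower too (-3.89 and -5.31). The monocyte receptor Ccr2 was higher at 22.7 and 19.4 against 0.747 and 1.07 FPKM and stood at 23.9 and 26.1 FPKM in the V617F WT clones. In 42 genes both Jak2WT clones lay under 0.1 FPKM and both V617F dKO clones at 1 or more, and in 25 genes the reverse was true. At least 10 reads in each clone of the higher group stood behind 37 and 20 of these, and the others rest on fewer reads. The way these genes were picked fixed their direction, so that the counts are a description.

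The differences were not spread evenly over the chromosomes. On chromosome 16, the median of 362 genes was -0.34 in the V617F WT clones, with -0.31 in clone 1 and -0.37 in clone 3, and -0.015 in the V617F dKO clones. Of the genes of this chromosome, 48.1% were lower in the V617F WT clones than in the Jak2WT clones. It holds 3.19% of the genes tested, but 90 (12.7%) of the 708 genes that returned from below and 14 (7.18%) of the 195 beyond the Jak2WT level, among them Mcm4, Cdc45, Sdf2l1 and Dnajb11. The calls of Mcm4 and Cdc45 were lost without either Jak2WT clone or either V617F dKO clone. On chromosome 3, the median of the V617F dKO clones was -0.22, with -0.34 in clone 1 and -0.13 in clone 3, and 30.0% of its genes were lower. On chromosome 13, clone 1 stood at -0.28 and clone 3 at 0.061, and on chromosome 5 at -0.051 and -0.21. These medians move whole chromosomes in some clones, and gene copy number was not measured here. With the genes of chromosomes 3, 5, 13 and 16 left out, 31 genes of DNA replication remained, with 13 higher, 1 lower and 11 beyond the Jak2WT level. For the chaperones it was 18 genes, with 11 higher and 6 beyond, and 15 of 17 HIF-1 targets remained lower.

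**Figure D5:**
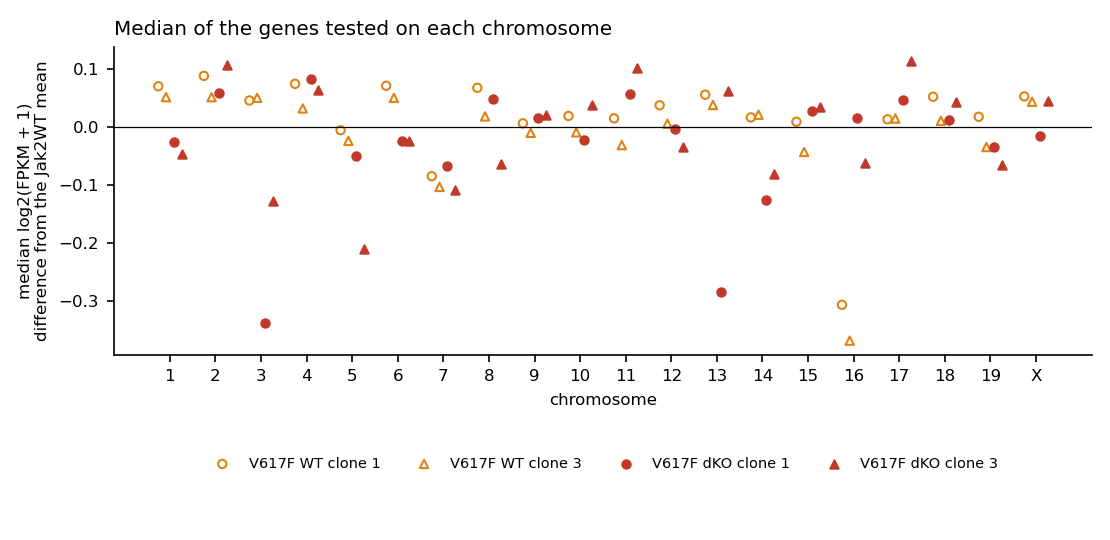
Median log2(FPKM + 1) difference from the mean of the Jak2WT clones over the genes tested on each chromosome (horizontal axis), for each V617F WT clone (open orange) and each V617F dKO clone (filled red), with circles for clone 1 and triangles for clone 3. Chromosome 16 stands apart in both V617F WT clones, chromosomes 3 and 13 in V617F dKO clone 1 and chromosome 5 in V617F dKO clone 3. In the latter clone, chromosome 3 at -0.13 lies near chromosome 7 at -0.11.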

How the data were processed

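RNA of 8 clones of the mouse line 32D was sequenced after selection of polyadenylated RNA. The authors' processing notes name featureCounts (2.0.6), the aligner HISAT2 (2.2.1), the read trimmer fastp (1.0.1) and the build mm39 (GRCm39), and the values deposited are FPKM per gene in 1 table of all libraries. Multiplying FPKM by gene length gave whole reads for 100% of values within 0.01 reads, and the summed reads per library ranged from 16846011 to 48884329. These recovered reads served only the depth, the lower bounds, which assume 3 reads, and an alternative test with voom, so that the bounds cover the counting of reads only. Intervals come from the limma fit and rest on the spread between clones.

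Genes that reached 1 FPKM in 2 or more of the 4 libraries compared were fitted with limma 3.58.1 on log2(FPKM + 1), with 4 group means over all 8 libraries and an intensity trend in the empirical Bayes step (residual degrees of freedom 4). P-values were adjusted over 11364 genes and 0.05 was the threshold. Beyond was set by the calls of V617F WT and of V617F dKO against the Jak2WT clones. Returned needed the first of these calls and the interval rule for the V617F dKO clones. Of the classes beyond, short and returned, only short also needed a call between the 2 Jak2V617F groups. The script was tested on simulated data. Gene lists, members and named genes were chosen with earlier results of these data known, so that no p-value over a list is given. Named were the targets and Jak2, Chek1, E2f1, Pcna and Pidd1, the 10 largest differences each way, the 10 leading genes of each end point, and up to 5 called members of a list each way or any member for its value. A few genes that this rule names are not reported here. A symbol carried by several identifiers was kept for the one with the highest mean FPKM. Promoters were taken from RefSeq (GRCm38.p6) by symbol for 7990 genes and searched with plain text matches.

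Alternatives were the pseudocount, 3 filters, the empirical Bayes settings, 2 scalings, voom, a fit of fewer libraries, a replicate block, each library left out, a wider margin and, added after seeing the data, the omission of 4 chromosomes. The Jak2WT GLUT1/3 dKO clones entered the fit and are described only beside it.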

Additional observations from a re-analysis of the deposited data

How the results depend on the processing

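Leaving out 1 library at a time gave 900 to 1768 genes higher, 935 to 1959 lower, 4693 to 5689 at the Jak2WT level, 34 to 194 beyond it, 38 to 96 short of it and 410 to 1635 returned. The lowest counts of genes higher, lower, beyond, short and returned came without 1 of the Jak2WT clones, where a single clone stands for the group in every contrast against it. Without an expression filter, 12767 genes were at the level, 123 beyond and 78 short, since low genes enter the fit and the adjustment. With every library scaled to the same summed FPKM 188 were short, and with voom on recovered reads 221, and the cause was not tested. Every other of these counts over all genes stayed within 1.5 times the reported one, while some counts of lists moved further. Of 165 named genes called, 41 lost the call under at least 1 of 19 alternatives and none reversed, and of those not called 9 passed under at least 1. Calls were lost in 5 or more alternatives for Spi1, Il3ra, Slc2a6, Eno3, Dnajc3, Iars, Sesn2, Mcm4, Cdc45, Stat3, Socs1, Socs3, Pf4, Il15 and Gm35037. Chek1 passed only without V617F dKO clone 1, at 0.47 (adjusted p = 0.02, and 0.02 to 0.638 over its alternatives).

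With the clone number as a replicate block, 1641 genes were higher and 1864 lower, and 3389 genes were called with and without the block. The main fit did not use clone numbers to pair the samples, and the labels do not say whether same-numbered clones share an origin. The deviations of same-numbered clones from their group means correlated at 0.056 between the groups compared. Over all pairs of groups the correlations lay between -0.26 and 0.16, which cannot decide the question with 2 clones a group. The libraries hold 2 clones a group, and the 95% interval of a gene reached a median of 0.27 to either side on the log2 scale, which limits the differences that could be told from 0.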

Other observations

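Of 15 genes of serine and one-carbon metabolism tested, 2 were higher and 5 lower, of 11 of iron uptake and storage 1 and 3, of 13 cytokine receptors 4 and 7 (1 of the 4 tested through the V617F dKO clones only), and of 9 of the MYC network 0 and 1, where limma gave no gene of that network an unadjusted p under 0.05 with a higher level and voom called none. Of 16 macrophage and monocyte genes listed, 5 were tested, with 2 higher and 1 lower. These counts leaned on single clones. Without Jak2WT clone 3, 2 genes of serine and one-carbon metabolism were lower. Without either Jak2WT clone, no gene of iron uptake and storage was higher, and without V617F dKO clone 1, 5 were lower. Without either Jak2WT clone, either Jak2WT GLUT1/3 dKO clone or V617F dKO clone 1, 2 cytokine receptors were higher. Without V617F dKO clone 1, 2 genes of the MYC network were lower and 1 macrophage and monocyte gene was higher, as was 1 without Jak2WT clone 3. Mitochondrially encoded transcripts of all kinds, 31 genes, had a median difference of -0.33 in the V617F dKO clones and -0.36 in the V617F WT clones.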
